A study of Mus musculus with 12 samples.

Results

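In the brains of mice with experimental autoimmune encephalomyelitis (EAE), 9 genes of reactive oxygen and nitric oxide chemistry were followed, namely *Cybb*, *Cyba*, *Ncf1*, *Ncf4*, *Rac2*, *Nos2*, *Hmox1*, *Sod2* and *Nox4*. They were chosen by name, as the genes of the NADPH oxidases and of the enzymes that work beside them, and are 9 of the 50457 genes listed. All 9 were found in the tables. The RNA-Seq data came from 12 whole brains of female C57BL/6J mice aged 8 to 12 weeks. In every mouse EAE had been induced with a peptide of myelin oligodendrocyte glycoprotein (MOG) in Complete Freund's Adjuvant with heat-killed *Mycobacterium tuberculosis*, and pertussis toxin was left out, which gives a mild disease. From the day after induction mice received oral cannabidiol (CBD) at 75 mg/kg in corn oil, or corn oil alone (CO), for 5 days, and brains were taken on Day 18. The labels place 3 mice in the EAE/CBD asymptomatic group, 4 in EAE/CBD symptomatic, 3 in EAE/CO asymptomatic and 2 in EAE/CO symptomatic, where any clinical score above 0 made a mouse symptomatic. The mice came from 2 cohorts, marked A and B, and each of the 4 groups held mice of both. One mouse that the labels call EAE/CBD symptomatic is listed as EAE/CO symptomatic in the study's own account, which gives 3 mice in each group. The means used here are the study's own and may follow that account, but which group mean this mouse entered is not stated.

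The phagocyte NADPH oxidase is the enzyme with which neutrophils, macrophages and microglia make superoxide. Its membrane core is a heterodimer of gp91phox (NOX2, encoded by *Cybb*), which carries the electrons, and p22phox (*Cyba*), which stabilises it. The enzyme is silent until the cytosolic proteins p47phox (*Ncf1*) and p40phox (*Ncf4*), among others, join it together with a Rac GTPase. One such GTPase is encoded by *Rac2*, a gene expressed mainly in blood cells. *Nos2* encodes the inducible nitric oxide synthase, whose product combines with superoxide to form peroxynitrite. *Hmox1* encodes haem oxygenase 1, which breaks haem down to biliverdin, iron and carbon monoxide, and *Sod2* encodes the manganese superoxide dismutase of mitochondria. *Nox4* encodes a relative of NOX2 that also needs p22phox but is active without the cytosolic subunits and releases mainly hydrogen peroxide. In EAE, infiltrating myeloid cells and activated microglia are the known sources of both superoxide and inducible nitric oxide.

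The values available for each gene were the authors' means, and each was the larger of the 2 group means of a pair. One pair was EAE/CBD asymptomatic with EAE/CBD symptomatic, and the other was EAE/CO asymptomatic with EAE/CO symptomatic. These means are called levels here. Their unit is not stated. Levels summed to 366929 in the EAE/CBD pair and 358949 in the EAE/CO pair, and after multiplication by transcript length in kilobases to 934576 and 919804, close to 1000000. They thus behaved like values per kilobase of transcript and per 1000000 reads, and on that scale genes are set side by side below. No value per mouse was used, so no SD can be given and no test was possible. Which group of a pair held the larger mean was not taken from the tables, so nothing is said of asymptomatic against symptomatic mice. The comparison made was of the level in the EAE/CBD pair with the level in the EAE/CO pair, which sets the higher group mean with cannabidiol against the higher group mean without it. The 2 levels of a gene can therefore come from unlike disease states, such as asymptomatic mice of one pair and symptomatic mice of the other, and treatment and disease state cannot be told apart in a ratio. Since whole brain was sequenced, fewer cells of a type and less RNA per cell cannot be told apart.

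The 9 genes spanned a wide range of levels, and their order was nearly the same in both pairs. *Cyba* stood highest, with a level of 88.88 in the EAE/CBD pair and 86.03 in the EAE/CO pair. *Nox4* stood lowest, at 0.05 and 0.02. Between them lay, from high to low in the EAE/CBD pair, *Sod2*, *Ncf1*, *Hmox1*, *Cybb*, *Rac2*, *Ncf4* and *Nos2*. In the EAE/CO pair *Cybb* and *Rac2* changed places and the others kept theirs. Without values per mouse it cannot be said which neighbours in this order differ beyond their spread.

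**Figure D1:**
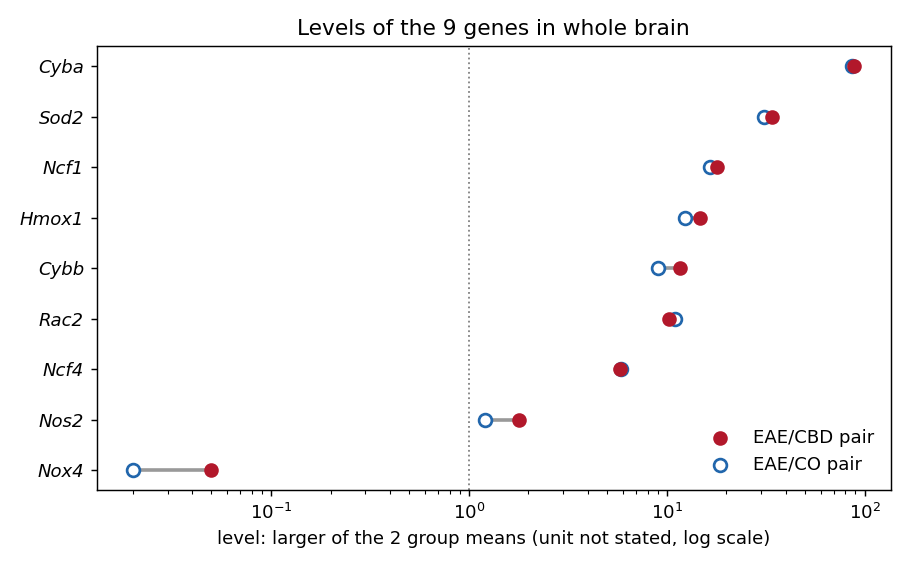
Levels of the 9 genes on a log axis, each the larger of 2 group means, for the EAE/CBD pair (filled) and the EAE/CO pair (open), with a dotted line at a level of 1. The points of a gene lie close together for *Cyba*, at 88.88 and 86.03, and furthest apart for *Nox4*, at 0.05 and 0.02, which lies below 1 in both pairs.

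None of the 8 members compared was 1.5-fold higher or lower in the EAE/CBD pair. Of the 9 genes, 8 had a level of at least 1 in either pair and were compared. Of these 8, 0 were at least 1.5-fold higher, against 3.57% of the 12927 genes compared (461 genes), and 0 were at least 1.5-fold lower, against 1.96% (254 genes). At these shares a count of 0 among 8 is near the background. Of the 8 ratios of the EAE/CBD to the EAE/CO level, 6 lay above 1 and 2 below. Most of all genes compared also lay above 1, so no lean of the 8 genes is read from this count. The median ratio of the 8 was 1.09 (log2 0.13), against 1.03 (log2 0.04) over all genes compared. The middle 90% of all ratios, from the 5th to the 95th percentile, ran from 0.756 to 1.42, and 7 of the 8 fell inside it, with *Nos2* above.

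**Figure D2:**
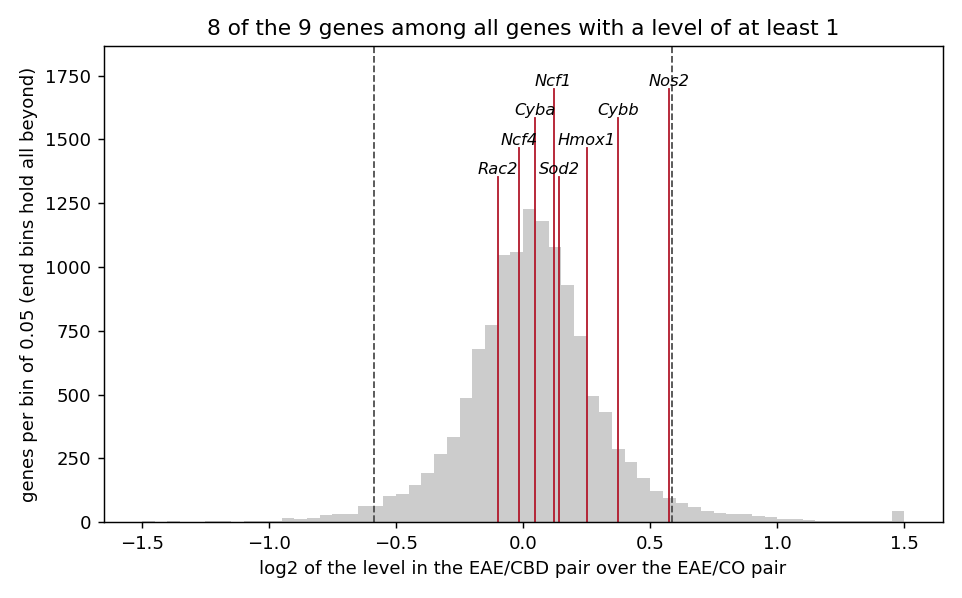
Log2 of the level in the EAE/CBD pair over that in the EAE/CO pair for the 12927 genes compared (grey, bins of 0.05, values beyond the axis pooled in the end bins) with 8 of the 9 genes marked in red and dashed lines at 1.5-fold. *Rac2* is the leftmost at -0.10 and *Nos2* the rightmost at 0.57, just inside the dashed line.

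The 2 membrane subunits of the phagocyte oxidase differed in level and in ratio. *Cybb* lies on the X chromosome (GRCm39, chrX:9301493-9354005, minus strand), and its canonical transcript has 13 exons. Its level was 11.72 in the EAE/CBD pair and 9.04 in the EAE/CO pair, a ratio of 1.30 (log2 0.37), and 90.7% of the genes compared had a lower ratio. This was the highest ratio among the 5 genes of the phagocyte enzyme. *Cyba* (chr8:123151510-123159679, minus strand, 6 exons), whose product also partners other NOX proteins, had a ratio of 1.03 (log2 0.05), and 51.4% of the genes compared had a lower one. The level of *Cyba* was thus 7.58 times that of *Cybb* in the EAE/CBD pair and 9.52 times in the EAE/CO pair. The gene model of *Cybb* overlaps *Xk*, a coding gene on the opposite strand with a level of 4.06 in the EAE/CBD pair. Whether reads were counted by strand is not stated, so reads of such overlapping genes cannot be told apart.

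The cytosolic subunits stayed closer together. *Ncf1*, which organises the assembly of the enzyme (chr5:134248907-134258479, minus strand, 11 exons), had levels of 17.98 in the EAE/CBD pair and 16.55 in the EAE/CO pair, a ratio of 1.09 (log2 0.12). *Ncf4*, whose product binds phosphatidylinositol 3-phosphate on phagosomes (chr15:78128364-78146782, plus strand, 10 exons), had 5.84 and 5.90, a ratio of 0.990 (log2 -0.01). With levels given to 2 decimals, rounding alone leaves that ratio between 0.988 and 0.992. Both subunits thus stood within 10% of equal levels in the 2 pairs. *Ncf1* overlaps *Gtf2ird2*, a coding gene on the other strand with a level of 4.28 in the EAE/CBD pair, so its value carries the same uncertainty as that of *Cybb*.

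*Rac2* had the lowest ratio of the 8. This Rac GTPase of blood cells (chr15:78443369-78456983, minus strand, 7 exons) had a level of 10.31 in the EAE/CBD pair and 11.05 in the EAE/CO pair, a ratio of 0.933 (log2 -0.10), and 26.3% of the genes compared had a lower one. *Rac1*, which nearly all cells express, stood far above it, at 135.47 and 130.04, and *Rac3*, the neuronal relative, at 23.75 and 18.32. Reads of *Rac2* could be confused with those of its relatives, so its coding start is shown with that of *Rac3*, the closer of the pair in sequence. The first 90 coding bases are given 5′ to 3′ from the GENCODE M39 canonical transcripts, with capitals where the 2 genes differ.
Rac2: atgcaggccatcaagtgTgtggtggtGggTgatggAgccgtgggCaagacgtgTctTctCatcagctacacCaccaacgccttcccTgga
Rac3: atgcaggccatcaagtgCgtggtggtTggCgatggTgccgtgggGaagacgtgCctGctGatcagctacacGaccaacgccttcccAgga
The 2 genes differed at 10 of these 90 bases. Over the whole coding sequence *Rac2* was 77.9% identical to *Rac1* and 82.7% identical to *Rac3*, and the longest run shared was 29 bases with *Rac1* and 23 with *Rac3*. These runs are far shorter than the 150 bases of a read, but mapping with mismatches was not examined. The run shared with *Rac1*, the more abundant relative, covers coding bases 1 to 29, within the stretch shown. Identity to a relative was lower for the other pairs examined, and *Cybb* was 65.6% identical to *Nox1*, *Nos2* 66.9% to *Nos1*, and *Hmox1* 63.8% to *Hmox2* over the coding sequence.

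Over the 5 genes of the phagocyte enzyme, ratios ran from 0.933 for *Rac2* to 1.30 for *Cybb*, and the summed level was 134.73 in the EAE/CBD pair and 128.57 in the EAE/CO pair. The ratios below 1, for *Rac2* and for *Ncf4* at 0.990, were close to 1, and with no spread known no direction is read from them. In the wider list of 17 NADPH oxidase genes, 9 passed the minimum level, and their median ratio was 1.04. Of these 9, 0 were 1.5-fold higher (against 3.57% of all genes compared) and 0 lower (against 1.96%). *Rac1* had the highest level of that list. *Cybc1*, whose product helps gp91phox mature, had 12.39 in the EAE/CBD pair and 11.72 in the EAE/CO pair. The catalytic genes other than *Cybb* were nearly undetected, with *Nox1* listed at 0 in the EAE/CBD pair and 0.02 in the EAE/CO pair, and *Nox3* at 0.01 and 0.

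*Nox4* did not pass the minimum level. At chr7:86893638-87047918 (plus strand, 18 exons), it had a level of 0.05 in the EAE/CBD pair and 0.02 in the EAE/CO pair. The ratio of these values is 2.50, but rounding to 2 decimals leaves it anywhere between 1.80 and 3.67. No direction is read from it. Of all genes listed above 0 in the EAE/CBD pair, 6.69% had a lower level than *Nox4*.

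*Nos2* showed the highest ratio of the 8 genes compared and stood just short of 1.5-fold. The gene (chr11:78811613-78851052, plus strand, 27 exons) is barely expressed in resting brain and is switched on in macrophages and microglia by microbial products and interferon. Its level was 1.80 in the EAE/CBD pair and 1.21 in the EAE/CO pair, a ratio of 1.49 (log2 0.57), which rounding leaves between 1.477 and 1.498. Of the genes compared, 96.2% had a lower ratio. Both levels were close to the minimum of 1, and *Nos2* remained the lowest of the 8 in both pairs. The other synthases were more abundant, with *Nos1*, the neuronal form, at 7.42 in the EAE/CBD pair and 5.56 in the EAE/CO pair (ratio 1.33), and *Nos3*, the endothelial form, at 2.39 and 1.99 (ratio 1.20). The ratios of all 3 synthases were above 1, as was the median ratio over all genes compared, at 1.03.

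Genes that supply or compete with nitric oxide synthases had mixed ratios, with *Arg1* the highest at 2.56 and *Arg2*, the mitochondrial arginase, the lowest at 0.839. All 14 genes of the nitric oxide and arginine list were compared. Of these, 3 were at least 1.5-fold higher (against 3.57% of all genes compared) and 0 were lower (against 1.96%). Ratios lay above 1 for 11 of them, as for most genes compared, and the median ratio was 1.30, against 1.03 over all genes compared. *Arg1*, the arginase that uses the same substrate, had 18.57 in the EAE/CBD pair and 7.26 in the EAE/CO pair, a ratio of 2.56. *Gchfr*, which regulates the first enzyme of tetrahydrobiopterin synthesis, had 4.91 and 3.00, a ratio of 1.64. *Gch1*, which encodes that first enzyme and so sets the supply of the cofactor of nitric oxide synthases, had 1.60 and 1.04, a ratio of 1.54. The levels of *Gch1*, like those of *Nos2*, lay near the minimum of 1, and their ratios of 1.54 and 1.49 lie close on either side of the threshold. The share of all genes called higher also depends on level, at 1.8% with a minimum level of 5 and 9.17% with no minimum. The gene of the list with the highest level was *Spr*, the last enzyme of that synthesis, at 64.63 in the EAE/CBD pair and 49.24 in the EAE/CO pair.

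*Hmox1* stood above most genes in ratio but well short of 1.5-fold. The gene (chr8:75820246-75827221, plus strand, 5 exons), a stress gene induced by haem and oxidants through the transcription factor NRF2, had a level of 14.78 in the EAE/CBD pair and 12.42 in the EAE/CO pair, a ratio of 1.19 (log2 0.25), and 82.5% of the genes compared had a lower one. *Hmox2*, the constitutive form, had 47.71 and 47.31, a ratio of 1.01. The inducible form was therefore the less abundant in both pairs and had the larger ratio. In the list of haem and iron genes, 9 of 11 were compared, and the median ratio was 1.07. Of these 9, 0 were 1.5-fold higher (against 3.57% of all genes compared) and 0 lower (against 1.96%). The ferritin heavy chain gene *Fth1* had the highest level, with 3411.71 in the EAE/CBD pair and 2661.28 in the EAE/CO pair, a ratio of 1.28. Of the 14 genes of NRF2 and its targets, 13 were compared, and 0 were past 1.5-fold in either direction, against the same shares. Ratios lay above 1 for 11 of them, as for most genes compared, and the median ratio was 1.16, against 1.03 over all genes compared. *Gsta4*, a glutathione transferase that detoxifies lipid peroxidation products, had the highest level there, at 69.11 and 49.25.

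*Sod2* was, after *Cyba*, the most abundant of the 9 genes. At chr17:13226726-13237006 (plus strand, 5 exons), it had a level of 34.15 in the EAE/CBD pair and 30.95 in the EAE/CO pair, a ratio of 1.10 (log2 0.14), and 68.4% of the genes compared had a lower one. Its level was 19.0 times that of *Nos2* in the EAE/CBD pair and 25.6 times in the EAE/CO pair. The cytosolic dismutase *Sod1* was far more abundant, at 529.51 in the EAE/CBD pair and 418.33 in the EAE/CO pair (ratio 1.27), and the secreted *Sod3* less so, at 13.97 and 15.04 (ratio 0.929). The ratio of *Sod3* was thus slightly below 1 and those of *Sod1* and *Sod2* above it, with no spread known to tell them apart. All 20 genes of superoxide and peroxide removal were compared, and the median ratio was 1.06. Of these, 1 was 1.5-fold higher (against 3.57% of all genes compared) and 0 were lower (against 1.96%). The 1 higher was *Gpx3*, the secreted glutathione peroxidase, with 42.34 in the EAE/CBD pair and 26.89 in the EAE/CO pair, a ratio of 1.57.

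Several of the 9 genes are expressed chiefly in myeloid cells, so markers of brain and blood cells were read on the same scale. For the marker counts here and in the next paragraph, 3.57% of all genes compared were at least 1.5-fold higher and 1.96% lower. Microglial markers had a summed level of 192.36 in the EAE/CBD pair and 169.14 in the EAE/CO pair, with 1 of 6 past 1.5-fold (*P2ry12*, 9.15 and 6.04) and with *Tmem119* at 21.91 and 21.87. General leukocyte markers summed to 84.57 and 80.46, with 0 of 4 past 1.5-fold, *Aif1* the most abundant at 36.91 and 42.53, and *Itgam*, the CD11b chain, at a ratio of 1.48. Markers of monocytes and macrophages summed to 50.59 in the EAE/CBD pair and 47.00 in the EAE/CO pair. They were split, with *Chil3* higher (18.55 and 7.18, ratio 2.58), *Ms4a4c* lower (1.46 and 2.60, ratio 0.562), and the other 4, of which *Ly6c2* was the most abundant at 23.38 and 29.83, short of 1.5-fold. Neutrophil markers summed to 77.22 in the EAE/CBD pair and 92.90 in the EAE/CO pair, with 0 of the 5 compared past 1.5-fold and *S100a9* the most abundant at 33.22 and 42.98. T cell markers summed to 12.38 and 17.28, with 3 of 6 at least 1.5-fold lower (against 1.96% of all genes compared), namely *Cd3g* (2.92 and 5.19), *Cd2* (2.27 and 3.51) and *Cd5* (0.72 and 1.21). These levels were low, and *Cd3d* stood at 1.96 in both pairs. The share of all genes called lower depends on level, and was 1.31% with a minimum level of 5 and 6.42% with no minimum. It was thus larger among genes of low level, such as these markers, than the 1.96% set beside them. Summed levels of neutrophil and T cell markers were thus lower in the EAE/CBD pair, and those of microglial, general leukocyte and monocyte markers higher. Without values per mouse these differences were not tested. No marker was listed at 0 in both pairs.

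Markers of resident cells also differed between the pairs. Neuronal markers had a median ratio of 0.861, with *Snap25* at 687.84 in the EAE/CBD pair and 767.30 in the EAE/CO pair and 0 of 5 past 1.5-fold. Median ratios were above 1 for astrocytes (1.28, with *Gfap* at 216.74 and 155.61 and *Aqp4* past 1.5-fold at 47.24 and 27.71), oligodendrocytes (1.28), endothelium (1.34, with *Cldn5* at 38.55 and 37.45) and red blood cells (1.27, with *Hba-a1* at 647.48 and 543.31). The ratio of *Nos2*, at 1.49, lay above the median of each of the 10 marker lists. It did not lie above every single marker. *Chil3* (ratio 2.58), *Aqp4* and *P2ry12* were past 1.5-fold and so higher, and *Itgam* was close at 1.48. The ratios of the other 7 genes compared lay below the highest of these medians. A median can differ from the ratio of summed levels, as for endothelium at 1.34 and 1.09. The part of cell makeup or dissection in the values of the 9 genes was not tested.

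**Figure D3:**
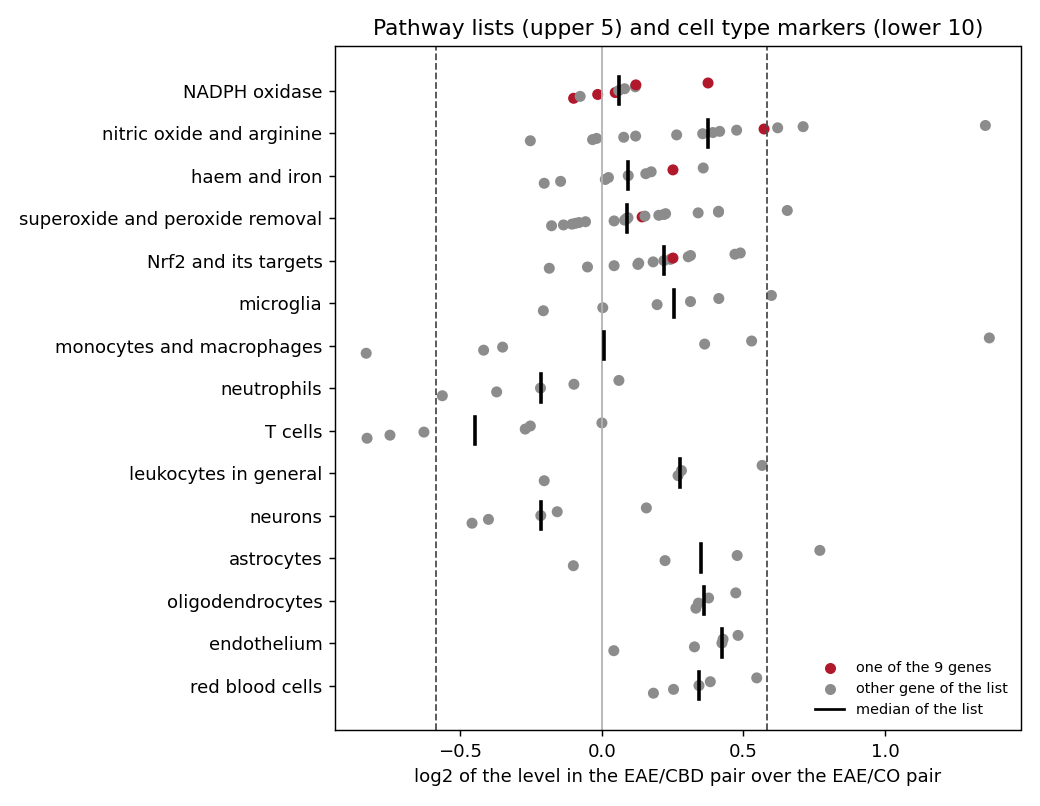
Log2 of the level in the EAE/CBD pair over that in the EAE/CO pair for each gene compared in 5 pathway lists and 10 lists of cell type markers, with 8 of the 9 genes in red (*Nox4* was not compared), the other genes in grey, a black bar at each median and dashed lines at 1.5-fold. The nitric oxide and arginine list has the highest median of the 5 pathways (ratio 1.30) and T cells have the lowest of the markers (ratio 0.732).

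The promoters of *Cybb* and *Nos2* are shown because these genes had the 2 highest ratios of the 8. Each is the 250 bases before the start of the GENCODE M39 canonical transcript, 5′ to 3′ on the gene's strand in GRCm39, at chrX:9335571-9335820 (minus strand) for *Cybb*, where that start lies within the gene span given above, and chr11:78811363-78811612 (plus strand) for *Nos2*, and capitals mark the motif matches described after them.
Cybb: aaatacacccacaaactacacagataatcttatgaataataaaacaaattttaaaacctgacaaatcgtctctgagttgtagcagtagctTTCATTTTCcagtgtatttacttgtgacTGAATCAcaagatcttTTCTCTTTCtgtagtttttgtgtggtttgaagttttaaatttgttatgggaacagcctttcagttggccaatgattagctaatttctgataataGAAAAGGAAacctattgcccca
Nos2: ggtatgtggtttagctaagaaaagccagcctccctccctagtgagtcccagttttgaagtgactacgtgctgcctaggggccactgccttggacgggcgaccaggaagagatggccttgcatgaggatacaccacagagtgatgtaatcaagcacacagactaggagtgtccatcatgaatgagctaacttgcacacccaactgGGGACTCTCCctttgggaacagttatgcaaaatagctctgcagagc
Both strands were searched for 7 motifs in the 21747 promoters of this length of protein-coding genes, which included those of all 9 genes. The core of the interferon-stimulated response element (GAAANNGAA) was present in 7.56% of all promoters and in 2 of the 9, with 3 matches in *Cybb*, beginning 160, 116 and 22 bases before the start, and 1 in *Ncf1* that overlaps its gamma-activated site. The AP-1 site (TGANTCA, 6.18% of promoters) matched in *Cybb* alone. The NF-kappaB site (7.62% of promoters) matched in *Nos2*, beginning 46 bases before the start, and in *Ncf4*. The gamma-activated site (TTCNNNGAA, 7.70%) matched in *Ncf1*, *Ncf4*, *Sod2* and *Nox4*, and the PU.1 site (GAGGAAGT, 2.08%) in *Ncf4* and *Rac2*. The antioxidant response element (TGACNNNGC, 9.67%) and the TATA box (TATAAA, 11.9%) matched in 0 of the 9 within this window. A match says only that these letters are present.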

How the data were processed

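RNA from 12 brains was sequenced as paired reads of 150 bases. Per the labels, the authors trimmed the reads, mapped them to GRCm39 and compared groups in CLC Genomics Workbench (version: not given in the sources used here). GRCm38 and GRCm39 both stand in the processing notes of the submitters, and the coordinates of the 9 genes in the tables lay on their GENCODE models in GRCm39.

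The deposited tables hold comparisons between 2 groups. Their log2 fold changes, fold changes, p-values, FDR and Bonferroni values are the authors' own results and were not used, and 3 tables with nothing else, or with only genes past an FDR, were left out. The column used was the authors' larger group mean, in 3 tables listing 50457 genes, given to 2 decimals in a unit that is not stated. The depth behind each value is unknown, as are values per mouse. The 2 tables of the EAE/CO pair held identical levels.

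The level in the EAE/CBD pair was divided by that in the EAE/CO pair, with no pseudocount, for genes above 0 in both pairs whose larger level reached 1. A gene was called higher or lower at 1.5-fold. Other folds, minimum levels, a pseudocount and centring were tried. The calculation was run on simulated data with little noise and with changes set well past the threshold. That run checks the arithmetic only, and says nothing of the calls on these data. All 9 genes were named, and in each list the genes past 1.5-fold and the most abundant gene, with the closest relatives of the 9. A few genes that this rule would name are not reported here. Further list genes named for context (*Cybc1*, *Arg2*, *Tmem119*, *Itgam*) were chosen after their values were seen. The 9 genes, the lists and the motifs were chosen with earlier results of these data known. Transcript models and promoter positions came from GENCODE M39 and sequences from the GRCm39 genome. Python 3.11.15, pandas 2.3.3, numpy 2.4.6, Biopython 1.88 and matplotlib 3.10.9 were used.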

Additional observations from a re-analysis of the deposited data

How the results depend on the processing

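With group means alone, no mouse could be left out and no spread given, so the ratios are descriptions of these means. By the labels the groups hold 2 to 4 mice, and by the study's own account they were equal in size. Which mice entered each mean is not fully known. With the threshold set at 25% in place of 1.5-fold, 2 of the 8 genes were higher (*Cybb* and *Nos2*), against 12.3% of all genes compared. With no minimum level, 1 of the 9 genes was higher (*Nox4*, ratio 2.50), against 9.17%. The count higher was 0 at a fold of 2, with a minimum level of 5 (7 genes compared), after centring on the median of all genes and with a pseudocount of 1, and the count lower was 0 under each of these settings. Of 27 ratios of single genes recomputed with a pseudocount, centring or the other table of the EAE/CO pair, 25 moved by less than 0.1 on the log2 scale and 0 changed sign. Most of these could hardly move, since the other table held identical levels and centring shifts every log2 ratio by the same 0.039. Only the pseudocount could move the genes unlike one another, so the count of 25 says little about stability. The 2 that moved further were at low levels, both with the pseudocount, to a log2 of 0.34 for *Nos2* and 0.04 for *Nox4*. *Nos2*, at 1.49, lies so near 1.5-fold that its call rests on the threshold.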

Other observations

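Among the list genes compared, the 2 with the highest ratios were singled out after their values were seen. *Chil3*, a chitinase-like protein of the monocyte and macrophage list, whose median ratio was 1.00, had a level of 18.55 in the EAE/CBD pair and 7.18 in the EAE/CO pair, and *Arg1*, which draws arginine away from nitric oxide synthases, had 18.57 and 7.26. Their ratios of 2.58 and 2.56 exceeded the 1.49 of *Nos2*, and the levels of *Arg1* were well above those of *Nos2*, at 1.80 and 1.21. Without values per mouse these differences were not tested, and a single mouse with a high value in one group was not looked for.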
